A study of Mus musculus with 13 samples.

Results

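Marker genes of macrophages, neutrophils, dendritic cells and mast cells were examined by bulk RNA sequencing in tumors of a pair of mouse models of basal cell carcinoma (BCC). The markers were 44 genes found by symbol among the 21100 genes of the expression table. The lookup by symbol used no measured value, but the list was chosen with earlier results of these data known. They were arranged by cell type and role into macrophage core genes (9), macrophage scavenger receptors (3), the chains of complement C1q (3), lipid-handling and matrix genes of macrophages (4), genes shared by myeloid cells (6), neutrophil genes (7), dendritic and Langerhans cell genes (5) and mast cell genes (7). Of the 44 genes, 36 passed the filter on low counts and were among the 14390 genes tested. Retnlg, Clec4d, Clec4e, Flt3, Siglech, Ms4a2 and Fcer1a fell under the filter, and Ly6g had no value in the transplanted tumors. Such blanks covered all Tp-BCC tumors alone for 1932 genes, all GEM-BCC tumors alone for 65 genes and part of a model for 0 genes. Whether the models were quantified together is not given in the sources used here, which bears on each value compared between them.

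The study set a transplantable model (Tp-BCC, 4 tumors of 4 mice) beside the genetically engineered model it was derived from (GEM-BCC, 9 tumors of 7 mice). GEM-BCC mice were Ptch1+/- K14-CreERT2 p53fl/fl females, in which Cre acts only in cells that use the keratin 14 promoter, and they received 3 injections of 300 µg tamoxifen and 4 Gy of X-rays. GEM2 and GEM3 came from the same mouse, as did GEM7 and GEM8. Tp-BCC tumors grew under the skin of female Ptch1+/-p53fl/fl mice after inoculation of 2000000 tumor cells, and every Tp-BCC tumor descended from a single GEM-BCC tumor, so that the 4 Tp-BCC tumors represent 1 line. Both models carried the Ptch1 and p53 alleles in their host cells. The labels give batch 1 for the GEM-BCC tumors and batch 2 for the Tp-BCC tumors, so that model and batch cannot be told apart. Library totals ran from 28075317 to 32629102 counts for GEM-BCC, and Tp-BCC libraries were smaller, at 15388027 to 17494912 counts. Keratinocyte identity was present in both models, with 7 basal epithelial and Hedgehog target genes at a summed 12032 to 17797 CPM, counts scaled to a common library size, in GEM-BCC and 8893 to 21713 CPM in Tp-BCC. Among the Tp-BCC tumors, TP2 and TP4 stood apart from TP1 and TP3: across genes, the level in a tumor relative to the mean of all tumors rose with transcript GC content in TP2 (rho 0.594) and TP4 (rho 0.591) and fell in TP1 (rho -0.389) and TP3 (rho -0.473). In GEM-BCC it rose in GEM1 (rho 0.365) and fell in the other 8 tumors (rho -0.312 to -0.150).

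Tumor-associated macrophages arise from blood monocytes and from macrophages already in the tissue, and the receptor encoded by Csf1r keeps them alive. They clear dying cells, load lipids and produce complement C1q. Neutrophils pack their cytoplasm with the calcium-binding proteins S100A8 and S100A9, conventional dendritic cells depend on the receptor FLT3 and carry the transcription factor ZBTB46, and skin mast cells depend on the receptor KIT and store the proteases carboxypeptidase A3, chymases and tryptases. The transcription factor PU.1 acts in all myeloid lineages and recognizes a purine-rich core, GAGGAA in 1 of its usual forms.

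RefSeq gene starts (mouse build GRCm38.p6) gave a promoter window for 36 of the 44 genes. Tyrobp, Cd14, Cd86, Adgre1, Csf1r, Msr1, C1qa and Tpsb2 had none. The letters GAGGAA, or TTCCTC on the other strand, stood in the 250 bases before a start of 19 of these 36 genes, beside 23.3% of all 32851 promoter windows of the same length. Genes with several listed starts counted once if any window held the letters. The percentages over all windows instead count each window singly (32851 windows of 27025 genes), so the shares are not in the same unit. The core was in 4 of 5 macrophage core genes, both C1q genes with a window and 5 of 7 neutrophil genes, but in 1 of 5 dendritic and 1 of 6 mast cell genes. For GATA factors, AGATAA on either strand was in 3 of 6 mast cell genes and in 6 of the 36 genes, beside 9.99% of all windows. For C/EBP factors, TTGCNNAA was in 4 of 7 neutrophil genes and in 9 of the 36, beside 9.56% of all windows. Such matches describe the letters of the window and do not show binding.

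Shown here are the windows of 4 genes that passed the test between the models and of 2 neighboring C1q genes whose levels moved together across tumors, each as the 250 bases before the start, 5′ to 3′ along the gene, with the PU.1 core in capitals on whichever strand it lies. Zbtb46 passed as well, but its window, which held no match to the core, is not shown. The window of Cd68 is chr11:69666171-69666420 (minus strand), that of Apoe chr7:19699189-19699438 (minus strand, the first of 3 listed starts), that of S100a8 chr3:90668821-90669070 (plus strand) and that of S100a9 chr3:90695722-90695971 (minus strand). The windows of C1qb and C1qc are chr4:136886201-136886450 and chr4:136892915-136893164 (both minus strand).
Cd68: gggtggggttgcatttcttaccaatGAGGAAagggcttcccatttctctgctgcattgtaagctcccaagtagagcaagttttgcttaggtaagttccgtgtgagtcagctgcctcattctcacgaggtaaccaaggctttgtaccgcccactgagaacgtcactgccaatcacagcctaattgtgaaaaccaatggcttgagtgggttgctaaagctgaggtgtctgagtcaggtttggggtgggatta
Apoe: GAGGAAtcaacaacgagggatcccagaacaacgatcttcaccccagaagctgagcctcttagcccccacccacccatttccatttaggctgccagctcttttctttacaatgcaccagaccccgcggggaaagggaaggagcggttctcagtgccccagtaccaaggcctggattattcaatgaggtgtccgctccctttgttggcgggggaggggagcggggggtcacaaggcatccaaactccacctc
S100a8: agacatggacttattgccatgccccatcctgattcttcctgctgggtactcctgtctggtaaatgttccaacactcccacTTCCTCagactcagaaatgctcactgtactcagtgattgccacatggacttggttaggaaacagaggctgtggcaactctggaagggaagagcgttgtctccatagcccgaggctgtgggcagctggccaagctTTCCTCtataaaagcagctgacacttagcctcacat
S100a9: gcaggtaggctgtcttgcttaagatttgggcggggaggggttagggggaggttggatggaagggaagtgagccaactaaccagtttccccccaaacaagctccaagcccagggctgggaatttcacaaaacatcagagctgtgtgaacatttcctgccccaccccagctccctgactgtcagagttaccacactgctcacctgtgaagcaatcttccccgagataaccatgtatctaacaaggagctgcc
C1qb: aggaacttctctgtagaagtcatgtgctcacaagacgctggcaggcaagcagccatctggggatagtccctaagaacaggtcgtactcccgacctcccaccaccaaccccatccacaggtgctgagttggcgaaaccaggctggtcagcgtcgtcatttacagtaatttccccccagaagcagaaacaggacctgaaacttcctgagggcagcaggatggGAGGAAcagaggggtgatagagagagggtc
C1qc: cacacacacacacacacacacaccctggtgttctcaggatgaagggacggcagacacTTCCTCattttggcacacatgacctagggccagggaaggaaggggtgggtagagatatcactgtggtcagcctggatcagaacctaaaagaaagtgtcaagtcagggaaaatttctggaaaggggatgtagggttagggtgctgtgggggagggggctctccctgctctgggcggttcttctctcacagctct
The core lay at -225 in Cd68, at -250 in Apoe, at -170 and -36 in S100a8, at -30 in C1qb and at -193 in C1qc, counted from the base before the start as -1, and there was no match in S100a9. S100a8 and S100a9 thus differed in this feature although GEM-BCC tumors held 0.524 to 1.33 counts of S100a9 per count of S100a8.

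Between the models, 5 of the 36 tested markers passed the test (edgeR quasi-likelihood test, Benjamini-Hochberg adjusted p under 0.05 over all tested genes), beside 19.4% of all tested genes. Cd68, a lysosomal protein of macrophages, and Zbtb46, a transcription factor of conventional dendritic cells, were higher in Tp-BCC, beside 11.1% of all tested genes in that direction. Apoe, the lipid carrier apolipoprotein E, and S100a8 and S100a9 were lower, beside 8.35% of all tested genes. Zbtb46, S100a8 and S100a9 also changed by more than 2 on the log2 scale, as did 5.57% of all tested genes. The groups did not overlap for 2 of the 36 markers, beside 9.95% of all tested genes: Zbtb46 with all Tp-BCC tumors above (5.5% of all tested genes) and Apoe with all below (4.45%). The median log2 fold change over all tested genes was -0.03, and 48.6% were positive. In these bulk samples, fewer cells of a type and less RNA per cell cannot be told apart.

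**Figure D1:**
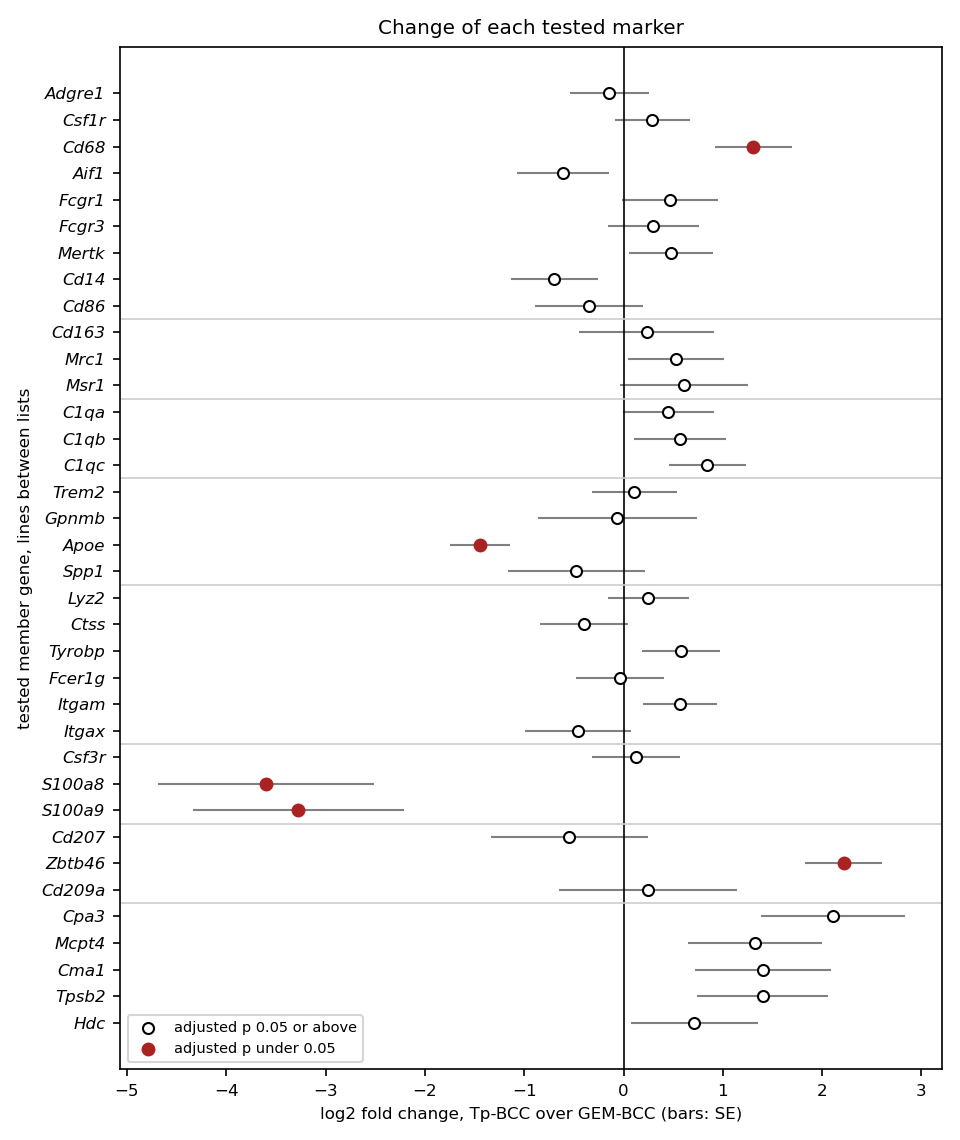
Log2 fold change of each tested marker, Tp-BCC over GEM-BCC, with its SE as a bar (x axis), for 36 genes grouped by cell type list (y axis). Filled points are the 5 genes past adjusted p 0.05: Cd68 and Zbtb46 lie right of 0 and Apoe, S100a8 and S100a9 left of it, while all 5 mast cell genes lie right of 0 without passing.

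Among the 9 macrophage core genes, 1 was higher in Tp-BCC (Cd68) and 8 did not pass the test, with a median log2 fold change of 0.29. Cd68 stood at 8.17 CPM in the lowest, 16.1 CPM in the median and 39.7 CPM in the highest GEM-BCC tumor. In Tp-BCC it was 35.4, 54.6, 35.4 and 67.2 CPM in TP1 to TP4. TP2 and TP4 lay above every GEM-BCC tumor, and GEM1 and GEM3 reached the level of TP1 and TP3. The log2 fold change of Cd68 was 1.31 (SE 0.39, adjusted p = 0.0292). Without TP2 the adjusted p was 0.0917 and without TP4 it was 0.118. Csf1r, the receptor for CSF1 and IL-34, ranged from 11.97 over a median of 22.2 to 58.6 CPM in GEM-BCC (lowest, median and highest tumor, as for the genes that follow) and was 26.2, 33.8, 24.9 and 52.9 CPM in TP1 to TP4, inside the GEM-BCC range throughout (log2 fold change 0.29, SE 0.37, adjusted p = 0.607). Mertk, a receptor for the uptake of dying cells, ranged from 12.8 over 35.9 to 59.9 CPM in GEM-BCC. In TP1 and TP3 it was 68.1 and 74.3 CPM, above every GEM-BCC tumor, and in TP2 and TP4 it was 38.5 and 11.6 CPM, the last below every GEM-BCC tumor. Its log2 fold change was 0.48 (SE 0.43, adjusted p = 0.449). With the GC trend of each tumor removed, Mertk in TP4 was 22.3 CPM, inside the GEM-BCC range (12.6 to 49.95 CPM). TP1 and TP3 stayed above that range, at 60.5 and 65.5 CPM. Among GEM-BCC tumors Mertk was highest in GEM9 and lowest in GEM3, unlike most core genes. GEM6, the highest tumor for 7 of the 9 core genes, held 23.2 CPM of Mertk. GEM4, the lowest for 5 of the 9, held 35.9 CPM. Which cells the Mertk reads came from was not tested. The expected counts of Mertk were whole numbers in every GEM-BCC tumor and fractional in every Tp-BCC tumor. Whether reads shared with another gene bear on this comparison was not tested.

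The other 6 core genes overlapped between the models. Adgre1, which encodes the macrophage surface antigen F4/80, lay between 3.02 and 12.1 CPM in GEM-BCC and between 2.78 and 7.83 CPM in Tp-BCC. The Fc receptor genes Fcgr1 and Fcgr3 lay between 0.494 and 4.10 CPM and between 1.58 and 9.72 CPM in GEM-BCC, and between 1.35 and 2.41 CPM and between 2.12 and 6.42 CPM in Tp-BCC. Cd14, a co-receptor for bacterial lipopolysaccharide, was close to constant in Tp-BCC (1.98 to 2.43 CPM) and spread from 1.45 to 8.52 CPM in GEM-BCC. Aif1 reached at most 3.14 CPM and the co-stimulatory gene Cd86 at most 2.60 CPM in any tumor. The sum over the 9 core genes was 67.1 to 144.9 CPM in GEM-BCC and 137 to 155 CPM in Tp-BCC, where Mertk and Cd68 each made up 32.7% of the mean sum.

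The 3 scavenger receptors did not pass the test (median log2 fold change 0.53). Mrc1, the mannose receptor CD206, ranged from 6.92 over 10.3 to 19.9 CPM in GEM-BCC. In Tp-BCC it was 28.3 CPM in TP1 and 30.8 CPM in TP3, above every GEM-BCC tumor, and 2.96 CPM in TP2 and 6.35 CPM in TP4, below every GEM-BCC tumor. As measured, the 4 tumors of 1 line thus lay on both sides of the engineered model. The log2 fold change of 0.53 (SE 0.48, adjusted p = 0.463) averages the pairs. With the GC trend of each tumor removed, TP2 (6.29 CPM) and TP4 (16.2 CPM) lay inside the GEM-BCC range of Mrc1 (6.22 to 16.95 CPM). TP1 and TP3 stayed above that range, at 22.15 and 21.1 CPM. Msr1, a receptor for modified lipoproteins, was at 1.295, 0.129, 1.86 and 1.07 CPM in TP1 to TP4 and ranged from 0.164 over 0.485 to 1.79 CPM in GEM-BCC (log2 fold change 0.61, SE 0.65, adjusted p = 0.527). Cd163, the hemoglobin-haptoglobin receptor, was at 1.18, 0.386, 0.838 and 0.571 CPM in TP1 to TP4 and ranged from 0.132 over 0.427 to 2.70 CPM in GEM-BCC (log2 fold change 0.23, SE 0.68, adjusted p = 0.835). GEM7 alone held the high Cd163 value, and the next GEM-BCC tumor was at 0.543 CPM.

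The C1q chains C1qa, C1qb and C1qc, whose products assemble into the first component of the classical complement pathway, did not pass the test, although all 3 had positive log2 fold changes (0.45, 0.57 and 0.85). C1qa ranged from 7.22 over 18.0 to 58.4 CPM in GEM-BCC and was 24.0, 29.7, 22.6 and 64.8 CPM in TP1 to TP4. C1qb ranged from 5.50 over 13.4 to 50.2 CPM and was 24.5, 25.1, 21.0 and 54.0 CPM. C1qc ranged from 7.22 over 15.7 to 45.7 CPM and was 27.0, 29.4, 25.1 and 55.5 CPM. TP1 to TP3 lay close together and TP4 stood above them for each chain, while GEM6 was the highest and GEM4 the lowest GEM-BCC tumor for each chain. The adjusted p was 0.506 for C1qa (SE 0.46), 0.406 for C1qb (SE 0.46) and 0.135 for C1qc (SE 0.39). Without TP4 the log2 fold change of C1qa was -0.070, and without GEM6 that of C1qc was 1.12 (adjusted p = 0.0283). With the GC trend of each tumor removed, the log2 fold changes were 0.077 for C1qa, 0.24 for C1qb and 0.52 for C1qc. TP4 was then at 37.3, 33.0 and 33.7 CPM for C1qa, C1qb and C1qc, beside 28.5, 28.3 and 31.2 CPM in TP1. The ratios between the chains varied less than their levels. There were 0.731 to 0.893 counts of C1qb per count of C1qa in GEM-BCC (0.834 to 1.02 for Tp-BCC). The ratio of C1qc to C1qa spread more widely, with 0.588 to 1.00 counts of C1qc per count of C1qa in GEM-BCC (0.858 to 1.12 for Tp-BCC).

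Apoe was the most abundant of the markers and the only lipid-handling and matrix gene to pass the test. It stood at 2015 CPM in the lowest, 2300.0 CPM in the median and 4172.5 CPM in the highest GEM-BCC tumor, and at 576, 1104, 658 and 1560 CPM in TP1 to TP4. Every Tp-BCC tumor lay below every GEM-BCC tumor, with TP1 and TP3 lowest. The log2 fold change was -1.44 (SE 0.30, adjusted p = 0.00430). Per kilobase of transcript, the mean level of Apoe was 1879.5 CPM in GEM-BCC and 692 CPM in Tp-BCC, against 57.4 and 68.3 CPM per kilobase for Lyz2, the next marker in both models. Apoe is made by macrophages and also by keratinocytes, fibroblasts and other cells. The sum of 9 fibroblast genes overlapped between the models (12261 to 49204 CPM in GEM-BCC, 15879 to 28794 CPM in Tp-BCC), with 3 genes higher and 2 lower, as did that of the basal epithelial genes. The sum of 12 genes of differentiated epidermis was lower in Tp-BCC with no overlap (158 to 1125 CPM in GEM-BCC, 76.3 to 111 CPM in Tp-BCC), as Apoe was, and 5 of its 10 tested genes were lower. Their part in the Apoe result was not tested.

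Trem2, a lipid-sensing receptor of macrophages, ranged from 0.989 over 2.40 to 5.34 CPM in GEM-BCC and was 3.06, 3.15, 1.98 and 5.21 CPM in TP1 to TP4 (log2 fold change 0.11, SE 0.43, adjusted p = 0.881). Spp1, the matrix protein osteopontin, ranged from 0.560 over 1.71 to 7.89 CPM in GEM-BCC and was 1.94, 1.16, 2.93 and 3.00 CPM (log2 fold change -0.48, SE 0.69, adjusted p = 0.652). The models overlapped fully for both genes. Gpnmb, a glycoprotein of lipid-laden macrophages and of melanocytes, had the largest SD of log2 CPM of the markers in GEM-BCC (1.70), from 0.109 CPM in GEM2 to 5.34 CPM in GEM5, and lay between 0.772 and 4.57 CPM in Tp-BCC. The 4 melanocyte genes with a value in all tumors summed to 0.897 to 2.31 CPM in GEM-BCC and 0.658 to 1.74 CPM in Tp-BCC.

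None of the 6 genes shared by myeloid cells passed the test, and 3 had positive and 3 negative estimates (median log2 fold change 0.11). Lyz2, the lysozyme of macrophages and neutrophils, ranged from 29.9 over 57.7 to 166.7 CPM in GEM-BCC and was 80.4, 45.1, 87.3 and 146.6 CPM in TP1 to TP4 (log2 fold change 0.25, SE 0.41, adjusted p = 0.693). Ctss, the protease cathepsin S, ranged from 4.52 over 13.6 to 32.5 CPM and was 14.1, 5.85, 15.2 and 13.4 CPM (log2 fold change -0.40, SE 0.44, adjusted p = 0.550). Tyrobp, the signaling adaptor DAP12, ranged from 3.36 over 6.58 to 15.8 CPM and was 11.4, 9.71, 8.38 and 21.1 CPM (log2 fold change 0.58, SE 0.40, adjusted p = 0.314). Each Tp-BCC value of Lyz2 and Ctss lay inside the GEM-BCC range, and for Tyrobp TP4 alone lay above it. The Fc receptor gamma chain Fcer1g lay between 0.890 and 6.16 CPM in GEM-BCC and between 2.21 and 3.50 CPM in Tp-BCC, and the integrin genes Itgam and Itgax between 1.05 and 10.6 CPM in all GEM-BCC tumors and between 2.35 and 5.997 CPM in Tp-BCC. Itgam shares 71.0% of the 100-base words of its transcript with the gene Gm49368 in GENCODE vM21, which is not the annotation used for counting. Its expected counts were whole numbers in all 13 tumors, and whether reads were shared was not tested.

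**Figure D2:**
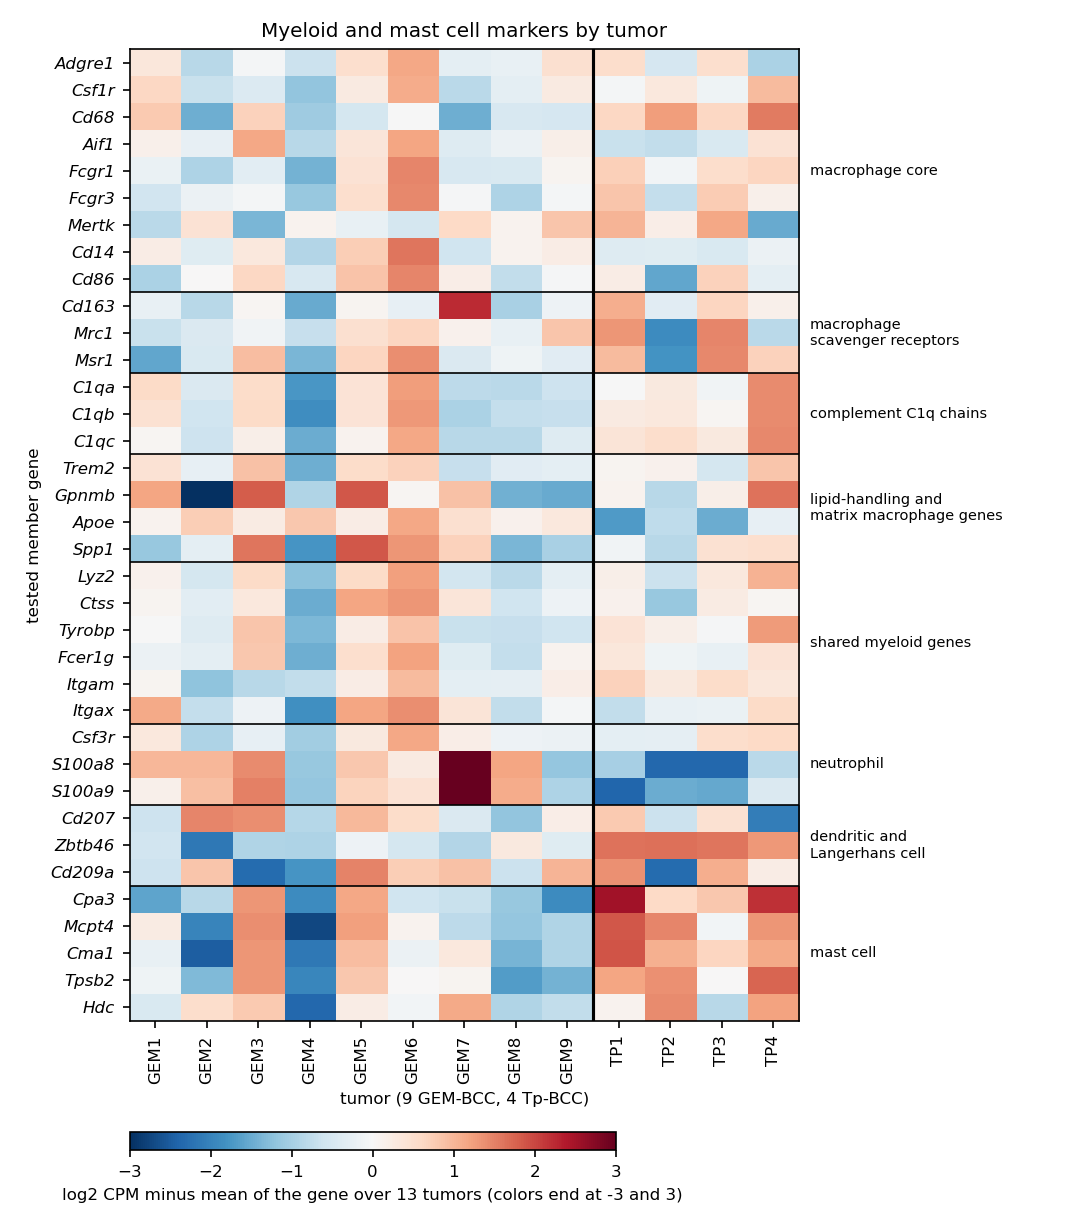
Log2 CPM of the 36 tested markers (rows, grouped by list) in each of the 13 tumors (columns, a line separates GEM-BCC from Tp-BCC), as the difference from the mean of the gene. GEM6 was highest for 19 of the 36 genes and GEM4 lowest for 22 among the GEM-BCC tumors, GEM7 holds the S100a8 and S100a9 peak, and Zbtb46 is high in all 4 Tp-BCC tumors.

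S100a8 and S100a9, which encode the subunits of calprotectin, were lower in Tp-BCC, while Csf3r, the other tested neutrophil gene, did not pass the test. S100a8 had 3 counts in the lowest, 21 in the median and 98 in the highest GEM-BCC tumor, and 2, 0, 0 and 2 counts in TP1 to TP4. S100a9 had 3, 18 and 106 counts in the lowest, median and highest GEM-BCC tumor, and 0, 1, 1 and 3 counts in TP1 to TP4. GEM7 was far above the others for both genes, at 3.12 and 3.37 CPM, and GEM4 and GEM9 lay below TP4 for both. The log2 fold change was -3.60 for S100a8 (SE 1.09, adjusted p = 0.0313) and -3.27 for S100a9 (SE 1.06, adjusted p = 0.0415). Summed over tumors, 233 counts in GEM-BCC stood against 4 in Tp-BCC for S100a8, a ratio of CPM of 13.1 (exact 95% interval 5.04 to 48.4), and 233 against 5 for S100a9, a ratio of 10.5 (4.42 to 32.5). Intervals of ratios of summed counts cover counting error only and take no account of the spread between tumors. GEM7 held 98 of the S100a8 and 106 of the S100a9 counts, and without it the ratios were 8.52 and 6.41 and the log2 fold changes -2.99 and -2.57. Without TP4 both log2 fold changes were -4.24. For S100a8 the adjusted p lay between 0.0520 and 0.0919 when any 1 Tp-BCC tumor was left out, and for S100a9 it was 0.0513 without GEM7, 0.0515 without GEM2, 0.0518 without GEM8 and 0.0775 to 0.106 without TP1, TP2 or TP3. With counts summed per mouse it was 0.0579 for S100a9, and with the GC trend of each tumor removed it was 0.0558 for S100a8 and 0.0959 for S100a9. A stricter filter, which drops genes with fewer than 10 counts in 4 or more tumors, left both genes untested.

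Csf3r, the receptor for the neutrophil growth factor G-CSF, ranged from 0.494 over 0.990 to 2.57 CPM in GEM-BCC and was 0.883, 0.900, 1.62 and 1.71 CPM in TP1 to TP4 (log2 fold change 0.13, SE 0.45, adjusted p = 0.867). The defining neutrophil gene Ly6g had 1 count in GEM3 and 0 in the other GEM-BCC tumors, and was not given a value in Tp-BCC. Retnlg, a resistin-like protein of neutrophils, had 45 counts over all GEM-BCC tumors and 3 over all Tp-BCC tumors, with 11 of the counts in GEM3 and 16 in GEM5. It was not tested. The lectin receptor genes Clec4d and Clec4e had at most 19 and 6 counts in any tumor. Of 20 further neutrophil genes 8 were tested and 1 passed, Lcn2, the iron-binding lipocalin 2, which fell (log2 fold change -3.07, SE 0.66, adjusted p = 0.00531) from 1.53 to 13.5 CPM in GEM-BCC to 0.353 to 1.03 CPM in Tp-BCC with no overlap. S100a8, S100a9 and Lcn2 are also transcribed by keratinocytes. The part of the differentiated epidermis, whose summed genes were lower in Tp-BCC with no overlap, in these results was not tested. GEM4, with the highest epidermal sum, had 3 counts of S100a8, and GEM7, with the second highest (1034 CPM), had 98.

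**Figure D3:**
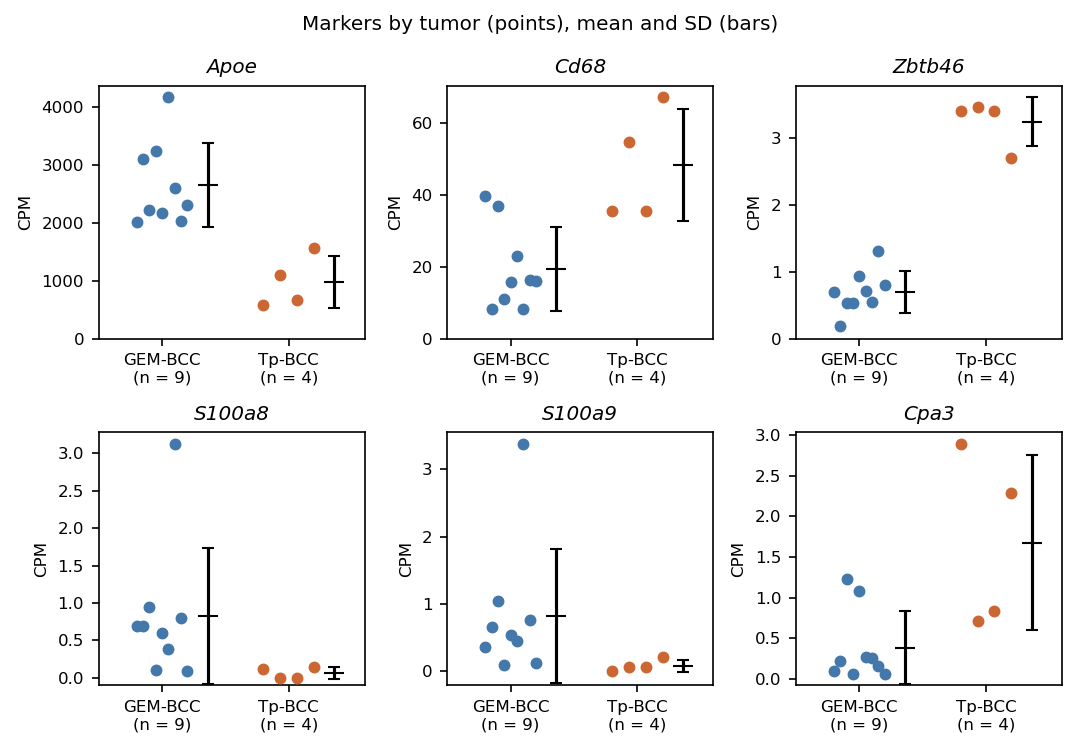
CPM of 6 markers by tumor (points), with the mean and SD of each model as bars (9 GEM-BCC, 4 Tp-BCC), each panel on its own linear axis. All Tp-BCC tumors lie below GEM-BCC for Apoe and above it for Zbtb46, GEM7 alone exceeds 3 CPM for S100a8 and S100a9, and GEM3 and GEM5 reach the lower Tp-BCC values of Cpa3.

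Zbtb46 was the only 1 of the 3 tested dendritic cell markers to pass the test. It had 5 counts in the lowest, 21 in the median and 41 in the highest GEM-BCC tumor, and 58, 54, 57 and 38 counts in TP1 to TP4, in libraries with fewer counts in all. As CPM this was 0.182 over 0.690 to 1.31 in GEM-BCC against 3.41, 3.47, 3.41 and 2.71. All Tp-BCC tumors lay above all GEM-BCC tumors, and TP4 was the lowest of the 4. The log2 fold change was 2.22 (SE 0.39, adjusted p = 0.00130). Zbtb46 is also transcribed by endothelial cells. The sum of 9 endothelial genes was 143 to 349 CPM in GEM-BCC and 510 to 751 CPM in Tp-BCC with no overlap, and 5 of the 9 were higher. Its part in the Zbtb46 result was not tested.

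The other dendritic cell markers had few counts. Cd207, the Langerhans cell lectin langerin, had a median of 9 counts in GEM-BCC (range 2 to 24) and 8, 2, 6 and 0 counts in TP1 to TP4 (log2 fold change -0.55, SE 0.79, adjusted p = 0.654). Cd209a, a lectin of monocyte-derived dendritic cells, had a median of 16 counts in GEM-BCC (range 0 to 34) and 15, 0, 12 and 5 counts in TP1 to TP4 (log2 fold change 0.24, SE 0.90, adjusted p = 0.871). Flt3, the growth factor receptor of dendritic cells, had 13 counts or fewer in each GEM-BCC tumor and 6 or fewer in each Tp-BCC tumor, and Siglech, a marker of plasmacytoid dendritic cells, at most 4 in any tumor. The sum over the 5 dendritic genes was 0.758 to 2.94 CPM in GEM-BCC and 3.43 to 4.97 CPM in Tp-BCC with no overlap, and Zbtb46 made up 40.3% of the mean sum in GEM-BCC and 74.5% in Tp-BCC. Of 18 further dendritic cell genes 15 were tested, 3 rose and 2 fell. Fscn1, the actin-bundling fascin of mature dendritic cells and of many tumor cells, rose by 1.99 on the log2 scale (SE 0.28, adjusted p = 2.24e-04), Bst2, the antiviral tetherin, by 1.20 (SE 0.29, adjusted p = 0.00969) and Batf3, a transcription factor of cross-presenting dendritic cells, by 1.63 (SE 0.53, adjusted p = 0.0434). The adhesion gene Cadm1 fell by 2.16 (SE 0.43, adjusted p = 0.00333) and the sorting nexin gene Snx22 fell by 2.29 (SE 0.78, adjusted p = 0.049995). Batf3 and Snx22 lay near the threshold and no longer passed when any 1 of many tumors was left out. The adjusted p of Batf3 was 0.149 without TP2 and 0.199 without TP4. Without any 1 of GEM1 to GEM4 or GEM7 to GEM9 it was 0.0554 to 0.0678. It was 0.0673 with library size alone, 0.0652 with counts summed per mouse, 0.06615 with the GC trend removed and 0.0288 by DESeq2. The adjusted p of Snx22 was 0.0506 to 0.1225 without any 1 of TP1 to TP4 or GEM1 to GEM7. For Bst2 it was 0.0573 without TP4. Without TP2 and TP4 it was 0.0556 for Cadm1, 0.175 for Bst2, 0.580 for Batf3 and 0.232 for Snx22, and without TP1 and TP3 it was 0.0894 for Snx22. Xcr1 and Clec9a, which define the cross-presenting cells, fell under the filter.

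None of the 5 tested mast cell genes passed the test. All 5 had positive estimates, also under each other scaling tried, with a median log2 fold change of 1.40 beside -0.03 over all tested genes. Cpa3, carboxypeptidase A3, had 2 counts in the lowest, 6 in the median and 39 in the highest GEM-BCC tumor, and 49, 11, 14 and 32 counts in TP1 to TP4. As CPM this was 0.0647, 0.218 and 1.23 in GEM-BCC and 2.88, 0.707, 0.838 and 2.28 in Tp-BCC. TP1 and TP4 lay above every GEM-BCC tumor, and TP2 and TP3 were below GEM3 and GEM5. The log2 fold change of Cpa3 was 2.11 (SE 0.72, adjusted p = 0.0514), and the call moved both ways with the setting. The adjusted p was 0.0357 by DESeq2, 0.0107 with the GC trend removed, 0.0213 without GEM3, 0.0269 without GEM5 and 0.0473 without TP3. It was 0.0708 with library size alone, 0.1475 without TP1, 0.145 without TP4, 0.0709 to 0.0809 without any other single tumor, 0.134 without TP2 and TP4, and 0.105 without TP1 and TP3. Mcpt4, the mouse counterpart of human chymase, ranged from 0.0989 over 0.604 to 2.97 CPM in GEM-BCC and was 4.18, 3.15, 1.02 and 2.86 CPM in TP1 to TP4 (log2 fold change 1.32, SE 0.68, adjusted p = 0.180). Cma1, another chymase, ranged from 0.0363 over 0.460 to 1.49 CPM and was 2.24, 1.22, 0.898 and 1.29 CPM (log2 fold change 1.40, SE 0.69, adjusted p = 0.160). GEM3 and GEM5 were the highest GEM-BCC tumors for Cpa3, Mcpt4 and Cma1, and overlapped with Tp-BCC each time.

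The tryptase gene Tpsb2 lay between 0.0659 and 1.297 CPM in GEM-BCC and between 0.479 and 1.78 CPM in Tp-BCC, and Hdc, which encodes the enzyme that makes histamine, between 0.0330 and 1.145 CPM and between 0.239 and 1.41 CPM. The chains of the high-affinity IgE receptor were barely sampled. Ms4a2 had 19 counts over all GEM-BCC and 2 over all Tp-BCC tumors, a ratio of CPM of 2.13 (exact 95% interval 0.514 to 18.9). Fcer1a had 10 counts over all GEM-BCC tumors and 0 over all Tp-BCC tumors, which allows up to 0.0474 CPM (3 counts over the 4 tumors), above the 0.0355 CPM measured in GEM-BCC. The sum over the 7 mast cell genes was 0.330 to 8.03 CPM in GEM-BCC and 11.01, 7.91, 3.53 and 9.42 CPM in TP1 to TP4, so that TP2 and TP3 overlapped with GEM-BCC.

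Of 18 further genes of mast cells and basophils 6 were tested and 2 rose. Kit, the receptor for stem cell factor, which melanocytes and some epithelial cells also carry, was at 2.51 to 7.14 CPM in GEM-BCC and 60.5 to 150.2 CPM in Tp-BCC (log2 fold change 4.32, SE 0.31, adjusted p = 3.93e-07). Slc18a2, the transporter that loads monoamines into granules, rose by 2.31 (SE 0.57, adjusted p = 0.0117), but by 1.31 without TP1 and TP3 (adjusted p = 0.155). The Kit values exceeded the sum of all 7 mast cell markers in every Tp-BCC tumor. In GEM-BCC they lay within the range of that sum over tumors (0.330 to 8.03 CPM). These CPM are not scaled to transcript length, and which cells the Kit reads came from was not tested. Mcpt8, Mcpt9 and Tpsab1 lacked a value in 1 model.

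**Figure D4:**
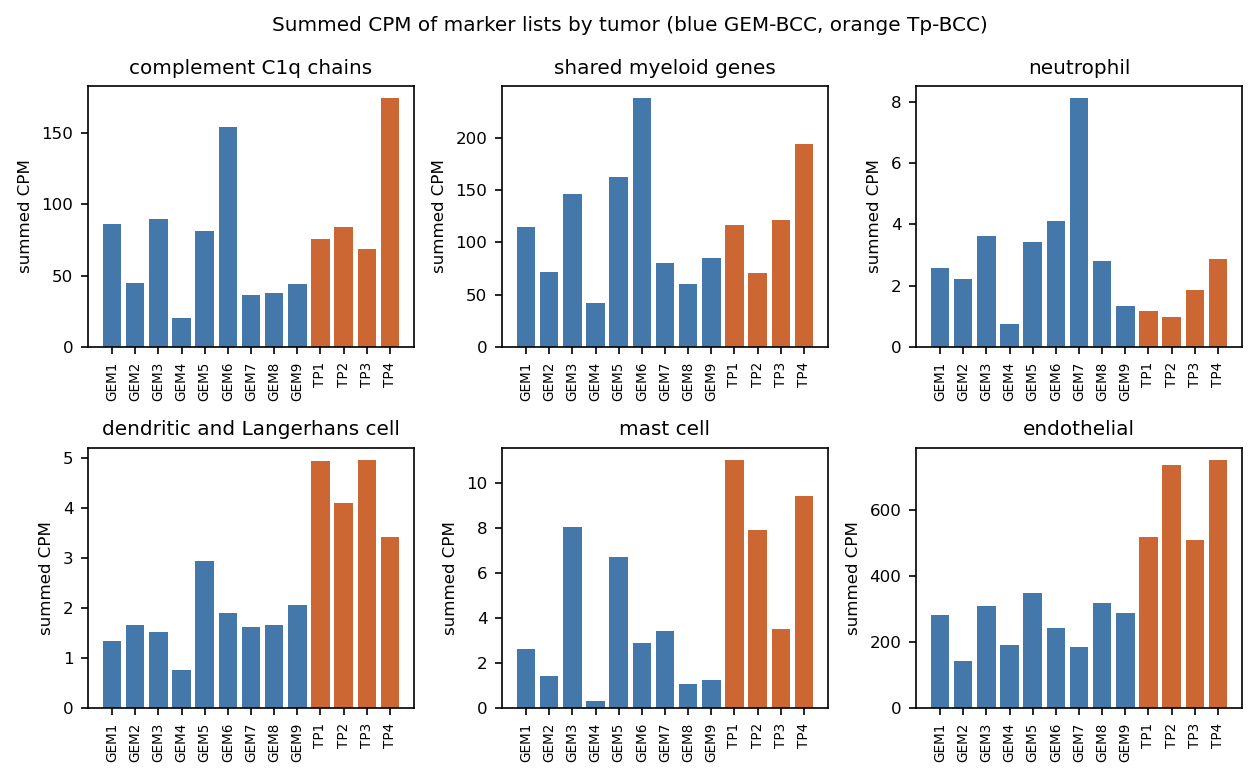
Summed CPM (y axis, linear, each panel on its own scale) of 5 marker lists and of 9 endothelial genes in each tumor (x axis), blue for GEM-BCC and orange for Tp-BCC. The dendritic sums of all 4 Tp-BCC tumors (3.43 to 4.97 CPM) exceed all GEM-BCC tumors, as do the endothelial sums, while the C1q, shared myeloid, neutrophil and mast cell sums overlap between the models.

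Of the 6 growth factors of these lineages, 4 were tested and 1 rose, Kitl, which encodes stem cell factor, the ligand of KIT. Kitl was at 2.17 to 10.7 CPM in GEM-BCC and 5.46 to 49.1 CPM in Tp-BCC (log2 fold change 2.54, SE 0.49, adjusted p = 0.00245). Without TP3 the log2 fold change of Kitl was 1.89 (adjusted p = 0.0158), and without TP1 and TP3 it was 1.17 (adjusted p = 0.0897). The CSF1 receptor ligands Csf1 (21.1 to 60.2 CPM in GEM-BCC, 43.5 to 67.0 CPM in Tp-BCC, adjusted p = 0.231) and Il34 (4.52 to 14.8 and 11.2 to 23.6 CPM, adjusted p = 0.0571) and the FLT3 ligand Flt3l (0.830 to 2.81 and 1.71 to 3.50 CPM, adjusted p = 0.334) did not pass. Csf2 and Csf3 fell under the filter. Of 37 further macrophage genes 33 were tested, 7 rose and 1 fell. The sialoadhesin gene Siglec1 rose by 2.86 (SE 0.47, adjusted p = 8.65e-04), from 0.348 to 3.78 CPM in GEM-BCC to 7.36 to 23.1 CPM in Tp-BCC. Pld4, a lysosomal nuclease, rose by 1.39 (SE 0.25, adjusted p = 0.00138), Nos2, the inducible nitric oxide synthase, by 1.61 (SE 0.37, adjusted p = 0.00805), and Stab1, the scavenger receptor stabilin-1, by 1.25 (SE 0.31, adjusted p = 0.0123). The adjusted p was 0.0544 for Nos2 and 0.0770 for Stab1 without TP4, and 0.235 for Nos2 and 0.213 for Stab1 without TP2 and TP4. Which cells the reads of Siglec1, Pld4, Nos2 and Stab1 came from was not tested. None of 9 genes of leukocytes in general passed. Their sum was 21.6 to 121 CPM in GEM-BCC and 71.7 to 132 CPM in Tp-BCC. The sums of T cell genes (5.97 to 16.7 CPM in GEM-BCC, 5.75 to 13.8 CPM in Tp-BCC) and of B cell genes (0.461 to 2.00 and 1.295 to 2.00 CPM) overlapped, with none of their 6 tested genes passing.

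Within GEM-BCC, the highest tumor differed among the markers. GEM6 was the highest for all 6 shared myeloid genes, all 3 C1q chains, 7 of 9 macrophage core genes and the neutrophil gene Csf3r, GEM7 for S100a8, S100a9 and Cd163, and GEM3 for 4 of 5 mast cell genes. GEM4 was the lowest GEM-BCC tumor for 22 of the 36 genes, among them all C1q chains and 5 of 6 shared myeloid genes. Tumors of the same mouse differed as well. In GEM3, 32 of the 36 genes were higher than in GEM2 from the same animal, with a median difference of 0.78 on the log2 scale beside -0.05 over all tested genes, and in GEM7 24 of the 36 were higher than in GEM8, with a median of 0.36 beside -0.06.

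Within Tp-BCC, the levels of many markers followed the split between TP1 and TP3 and TP2 and TP4. Of the 36 markers, 11, with a median transcript GC content of 47.6%, were higher in both TP1 and TP3 than in TP2 and TP4, among them Mrc1 and Mertk, and another 11, with a median GC content of 57.0%, were ordered the opposite way. Across the 36 markers, Spearman's rho between GC content and the difference was 0.716, against 0.790 over all tested genes with a GC value. The points of this correlation share the same 4 libraries, so it is given as a description. When TP2 and TP4 were left out, the log2 fold change of Mrc1 was 1.31 (adjusted p = 0.0371), and when TP1 and TP3 were left out it was -1.35 (adjusted p = 0.0368). Without TP2 and TP4 the adjusted p was 0.287 for Cd68, 0.141 for S100a8, 0.106 for S100a9, 0.0117 for Zbtb46 and 0.00249 for Apoe. Without TP1 and TP3 it was 0.0136 for Cd68, 0.0791 for S100a8, 0.1415 for S100a9, 0.00446 for Zbtb46 and 0.0243 for Apoe. The SD of log2 CPM among tumors had a median over the markers of 0.65 in Tp-BCC and 0.82 in GEM-BCC, and 8 of the 36 varied more in Tp-BCC. After removal of the GC trend of each tumor these medians were 0.61 and 0.84.

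**Figure D5:**
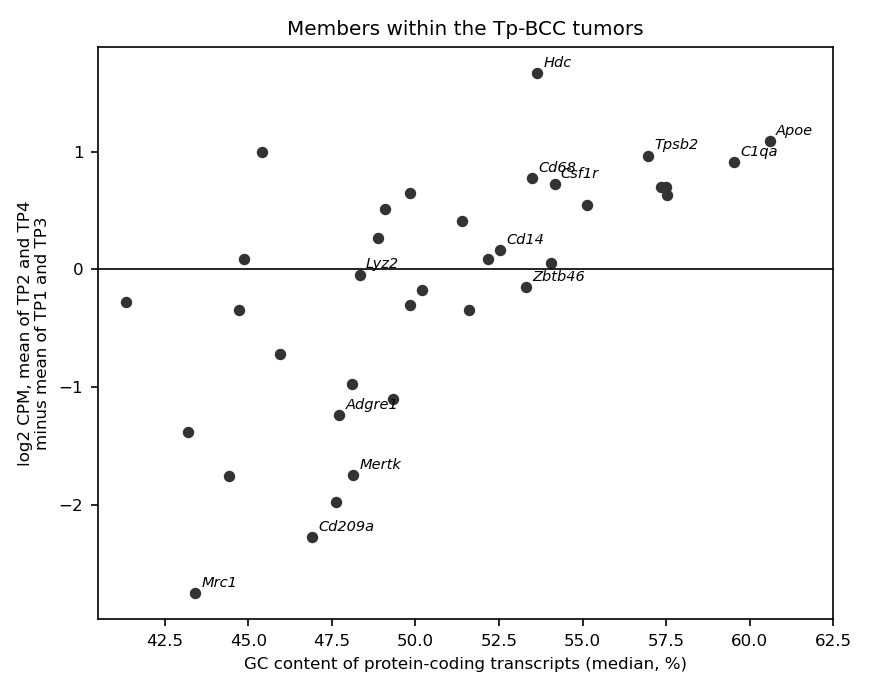
Difference of mean log2 CPM between TP2 and TP4 and TP1 and TP3 (y axis) against the GC content of the transcripts in percent (x axis), 1 point for each of the 36 tested markers. Mrc1 (43.4% GC) lies below 0 and C1qa (59.5%) and Apoe (60.6%) above it, while S100a9 (45.4%) lies above 0 and Zbtb46 (53.3%) below it.

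Compared per kilobase of transcript, the order of mean levels was led in both models by Apoe and Lyz2. In GEM-BCC the next were C1qa (24.8 CPM per kilobase), C1qb (19.3), C1qc (15.8), Cd68 (15.8) and Tyrobp (14.2). In Tp-BCC Cd68 (39.1 CPM per kilobase) stood before C1qa (33.9), C1qb (28.6), C1qc (28.5) and Tyrobp (21.2), and neighbors among these 5 genes differed by less than the SD between the tumors of a model. Zbtb46 moved from rank 38 of 43 genes in GEM-BCC to rank 26 in Tp-BCC, Cpa3 from rank 31 to 21, and S100a8 from rank 19 to 36.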

How the data were processed

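RNA was sequenced from 13 tumors. Per the labels and the study's methods, the authors trimmed poly(A)-selected, strand-specific paired reads, aligned them with Bowtie2 2.3.4.3 to GRCm39 transcripts and deposited RSEM 1.3.1 expected counts per gene, which need not be whole because RSEM splits reads shared between genes. The expected counts were rounded to whole numbers. Genes were kept if no tumor lacked a value and 4 or more tumors reached 10 counts, and were tested with edgeR 4.0.16 (R 4.3.3, TMM scaling, robust quasi-likelihood test, Benjamini-Hochberg adjustment over 14390 genes). SE values were obtained by dividing the absolute log2 fold change by the square root of the F statistic. CPM use the TMM library sizes of the tested genes, and log2 CPM a prior count of 2. P-values measure the spread between these tumors. The fit treated the tumors as independent, although GEM2 and GEM3 shared a mouse, as did GEM7 and GEM8. Since all Tp-BCC tumors are 1 line, variation between transplanted lines is not covered. GC content, transcript lengths and shared 100-base words came from GENCODE vM21 transcripts (GRCm38), and 14095 of the 14390 genes and all 36 tested markers had a GC value.

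The markers and the other gene lists were chosen with earlier results of these data known. Values by tumor were given for the 3 most abundant genes of each list, those past the test and those near 0, and from each other list at most the 5 genes of smallest adjusted p were named. Alternatives were DESeq2 1.42.0 and its size factors, library size alone, other filters, non-robust dispersions, counts per mouse, missing values set to 0, removal of a lowess GC trend (span 0.3), a replicate block, a fold threshold of 1 and leaving out each tumor. Leaving out TP1 and TP3, or TP2 and TP4, was added after seeing the data. The analysis was tested on simulated data.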

Additional observations from a re-analysis of the deposited data

Results flagged for a closer look

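Single tumors stood far from the rest of their model for 9 of the 48 sets of values examined (24 markers in each model), where the critical values used flag about 1 in 20 sets of independent, normally distributed values by chance. The sets here share tumors and are not independent, so that 9 of 48 was not set against that rate. C1qa was at 64.75 CPM in TP4, with the next Tp-BCC tumor at 29.7 CPM. C1qb was at 54.04 CPM in TP4, with the next at 25.07 CPM. C1qc was at 55.54 CPM in TP4, with the next at 29.38 CPM, and at 45.67 CPM in GEM6, with the next GEM-BCC tumor at 23.21 CPM. Csf3r was at 2.572 CPM in GEM6, with the next at 1.381 CPM. S100a8 was at 3.117 CPM in GEM7, with the next at 0.9488 CPM, and S100a9 was at 3.372 CPM in GEM7, with the next at 1.044 CPM. Cd163 was at 2.704 CPM in GEM7, with the next at 0.5429 CPM. Zbtb46 was lowest among Tp-BCC tumors in TP4, at 2.713 CPM, with the next at 3.412 CPM. All these values are as measured, without removal of the GC trend of each tumor.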

How the results depend on the processing

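The log2 fold changes of 24 markers were computed under 25 alternatives. Of 588 values, 533 kept their direction and their side of the threshold, 25 were no longer past it, 7 were newly past it and 23 turned sign. Zbtb46 (2.09 to 2.83) and Apoe (-2.11 to -0.99) kept their direction under every alternative and passed under all but the replicate block. Neutrophil, dendritic and IgE receptor genes had few counts, and all Tp-BCC tumors are 1 line in 1 batch.

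The markers that passed were 2 higher and 3 lower, with 3 past the fold threshold, and 13 other myeloid, mast cell and growth factor genes were higher and 4 lower. With a stricter filter 1 marker was lower and 1 past the fold threshold. That filter, the rule in the study's methods, drops genes with fewer than 10 counts in 4 or more tumors. S100a8 and S100a9 fell under it and were not tested there. With the GC trend removed 1 marker was lower, and with a fold threshold of 1 there were 5 past it. DESeq2 called 8 other genes lower. Leaving out TP2 and TP4 left 1 marker lower, 7 other genes higher and 1 lower, and leaving out TP1 and TP3 left 1 marker past the fold threshold and 8 other genes lower. When single tumors were omitted, 1 to 3 markers were higher, 1 to 3 lower and 1 to 4 past the fold threshold, and 7 to 16 other genes higher. As a mean of log2 CPM in place of a ratio of summed CPM, the difference between the models was 0.19 in place of 0.56 for macrophage core genes, -0.23 in place of -1.43 for lipid-handling genes and 0.54 in place of 1.34 for dendritic genes, since the sums follow their most abundant genes. Beyond that the cause was not tested.

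In the replicate block, the replicate number the models share in the labels was a term of the fit, which gave 0 markers higher, 0 lower and 0 past the fold threshold, with 1 other gene higher and 0 lower, and a log2 fold change of 0.40 for Spp1 and 0.16 for Ctss. The numbers only name tumors of different mice: deviations from the model means correlated at -0.381 to -0.101 between tumors of the same number, and 0 of 4 Tp-BCC tumors correlated best with its own number.

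Signs turned only for markers that had not passed. With the GC trend removed the log2 fold change was -0.21 for Trem2, 0.22 for Spp1 and 0.14 for Ctss. Without TP2 and TP4 it was -0.14 for Csf1r, -0.15 for C1qa, -0.30 for Trem2 and 0.20 for Cd207. Without TP1 and TP3 it was -0.46 for Mertk, -0.40 for Cd163, -1.35 for Mrc1, -0.25 for Msr1 and -1.23 for Cd209a. Over single tumors left out it ranged from -0.040 to 0.50 for Csf1r, -0.076 to 0.98 for Cd163, -0.070 to 0.70 for C1qa, -0.23 to 0.30 for Trem2, -0.125 to 0.49 for Lyz2, -0.085 to 0.36 for Csf3r and -0.20 to 0.62 for Cd209a.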
